A study of Mus musculus with 9 samples.

Results

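The heat shock chaperones examined here are 10 mouse genes given by symbol: Hspa1a, Hspa1b, Hspa8, Hsph1, Dnajb1 and Bag3 of the Hsp70 machinery, Hsp90aa1, Hspb1, and the mitochondrial pair Hspd1 and Hspe1. They were looked up in the array's probe-to-gene table, and each gene is represented by its brightest probe set, taken by the mean of the 9 arrays. Of the 10 genes, 8 had a probe set naming that gene alone, out of 17097 genes measured in that way, and all 8 were among the 11969 genes bright enough to be tested. Hspa1a and Hspd1 had no such probe set, and their levels were not analysed here. All bladders came from female C57BL/6J mice, whose age is not given in the sources used here. Tumours were grown by instilling MB49 mouse bladder carcinoma cells into bladders preconditioned with poly-L-lysine. In experiment 1, tumour bladders received 5 instillations of alpha1-oleate at 1.7, 8.5 or 17 mM, every other day from day 3 to day 11, or PBS as sham treatment. They were collected on day 12, with a healthy PBS bladder as control. Experiment 2 held healthy PBS, tumour PBS collected on day 12, and healthy bladders taken 24 h and 7 d after 17 mM alpha1-oleate. Each condition was 1 array of bulk bladder RNA per experiment, 9 arrays in all. Healthy PBS and tumour PBS thus had 2 arrays and the other 5 groups 1 each, and whether an array held 1 bladder or a pool is not given. Alpha1-oleate is a complex of oleate with a peptide from alpha-lactalbumin, and in this model it was given directly into the bladder.

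Chaperones bind unfolded stretches of other proteins and help them fold, stay soluble or be degraded. The Hsp70 proteins work in a cycle of ATP hydrolysis in which J-domain proteins deliver clients and nucleotide exchange factors release them, and Hsp90 takes over a set of clients that includes kinases and hormone receptors. Under proteotoxic stress the transcription factor HSF1 binds heat shock elements, which are repeats of a short unit in alternating orientation, and raises the transcription of many of these genes. Several of them also have high constitutive levels, and tumour cells are known for raised chaperone levels.

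Promoter stretches with heat shock units, the repeats that HSF1 binds, are shown first for the genes in which they were found. RefSeq promoter sequences (GRCm38.p6, 250 bases before to 50 bases after each start) were at hand for 8 of the 10 genes, not for Hsp90aa1 and Hspa8. Both 2-unit motifs, GAANNTTC and TTCNNGAA, were searched; each is its own reverse complement, so 1 search covers both strands, and motifs that overlapped by a unit were joined into longer runs. Stretches are printed 5′ to 3′ on the gene's strand, with the matched units in capitals.
Hspe1, chr1:55088053-55088082, plus strand: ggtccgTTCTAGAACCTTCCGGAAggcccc
Hsph1, chr5:149636280-149636309, minus strand: tgctgcagaTTCTGGAAAGTTCtcctcagt
Hsph1, chr5:149636351-149636380, minus strand: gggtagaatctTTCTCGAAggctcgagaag
Hspa1b, chr17:34959324-34959353, minus strand: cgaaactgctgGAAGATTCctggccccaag
Hspb1, chr5:135887791-135887820, plus strand: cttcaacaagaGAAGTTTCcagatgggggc
Hspb1, chr5:135887811-135887840, plus strand: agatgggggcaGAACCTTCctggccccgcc
Bag3, chr7:128523603-128523632, plus strand: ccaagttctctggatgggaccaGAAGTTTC

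The run in Hspe1 held 4 units and lay at bases -89 to -72, counted from the start of the gene. Hspd1 lies on the opposite strand and had 2 windows. That of a start inside the gene, at base 55087932, overlapped the Hspe1 window by 285 bases and held the same 18 bases at -144 to -127, while the window at the outermost Hspd1 start, base 55088243, held no match. Hsph1 also had 2 windows, neither at the outermost start of the gene, and both held the same 2 runs. From the start at base 149636315 the run of 3 units lay at 16 to 28 and the shorter one at -54 to -47, and from that at base 149636336 they lay at 37 to 49 and -33 to -26. The Hspa1b motif lay at -104 to -97, and Hspa1a carried the identical stretch at chr17:34972242-34972271. The whole windows of Hspa1a and Hspa1b differed at 4 of 300 bases. Their transcripts are known to be near-identical too, so the Hspa1b signal below may include Hspa1a. The Hspb1 motifs lay at -117 to -110 and -97 to -90, and that of Bag3 at 43 to 50, the last bases of its window. Neither of the Dnajb1 windows held a match to these letters. In all, 7 of the 8 genes had at least 1 window with 2 or more units (87.5%), against 4587 of 27025 genes (17.0%). These 7 include Hspa1a and Hspa1b with their near-identical windows and Hspd1 and Hspe1 with their shared stretch, so they are not separate finds. Counted by window, it was 8 of 11 (72.7%), against 15.1% of 32851. At least 3 units were found for 3 of the 8 and for 0.662% of all genes, and at least 4 for 2 of the 8, Hspd1 and Hspe1 with their shared stretch, and for 8 of the 27025 genes. A match is a description of letters and was not tested as a binding site.

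The values are deposited log2 intensities, so a difference of 1 is a doubling, and because the experiments had been normalized apart, differences were taken within an experiment. Array medians over all probe sets lay between 4.20 and 4.45 log2. The array labelled healthy 24 h stood apart from the other healthy arrays. Against healthy PBS of experiment 2 its proliferation markers were higher by a median of 3.16, its neutrophil markers by 2.34 and its liver markers by 1.61, while the 7 d array differed by 0.20, 0.09 and -0.31. It correlated with tumour PBS at r = 0.858 across genes, compared with 0.768 for the 7 d array and 0.758 for healthy PBS itself. Its correlation with healthy PBS of the same experiment was higher, at 0.956, and that of the 7 d array was 0.984. All 10 urothelial markers were measured, and 9 of 10 were called lower in sham-treated tumours (median difference -3.36 log2). Of all tested genes, 28.6% were called lower there.

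The question put to the sham-treated tumours was how their chaperone levels differed from healthy bladder. Hsph1, Hsp90aa1, Hspe1 and Hspa8 rose in the tumour and Bag3 fell, while Hspa1b, Dnajb1 and Hspb1 did not pass the test. Here 28.6% of all tested genes were called higher and 28.6% lower, so a changed gene was common: 4 of the 8 chaperones were higher and 1 lower (limma with the experiment as a block, Benjamini-Hochberg adjusted p under 0.05). The median difference of the 8 was 0.36 log2, beside a median near 0 (-0.005) over all tested genes. Nothing in the labels says that the arrays of a group came from separate mice, and the p-values then cover no more than the spread seen here, which may be technical.

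Hsph1, the Hsp110 nucleotide exchange factor that helps Hsp70 dissolve aggregates, was at 10.12 in tumour PBS and 8.66 in healthy PBS of experiment 1. In experiment 2 it was at 9.52 and 8.03. Both tumours lay above both healthy bladders, by 1.46 and 1.49 within the experiments. The fitted difference was 1.48 ± 0.09 log2 (SE), a 2.78-fold higher signal (limma adjusted p = 0.00313).

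Hsp90aa1, the stress-inducible cytosolic Hsp90, was at 11.31 in the tumour and 9.86 in the healthy bladder of experiment 1, and at 11.26 and 9.46 in experiment 2. Both tumours lay above both healthy bladders by more than a log2 unit. The difference was 1.62 ± 0.13 log2 (SE), 3.08-fold, the largest of the 8 (limma adjusted p = 0.00446).

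Hspe1, the lid of the mitochondrial chaperonin that encloses unfolded matrix proteins, was at 11.13 against 10.09 in experiment 1 and 10.62 against 9.75 in experiment 2. Its difference was 0.95 ± 0.10 log2 (SE), 1.94-fold, with 1.04 and 0.87 within the experiments (limma adjusted p = 0.00688). Hspa8, the constitutive Hsp70 of the cytosol, was at 12.13 against 11.63 and at 11.67 against 11.11. Its difference was smaller, 0.53 ± 0.09 log2 (SE) or 1.44-fold, and alike in the experiments at 0.50 and 0.56 (limma adjusted p = 0.0180). For Hspa8 the tumour of experiment 2 lay only just above the healthy bladder of experiment 1, so the separation holds within each experiment.

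Bag3, the exchange factor that links Hsp70 and small heat shock proteins to selective autophagy, went the other way. It was at 8.22 in the tumour and 8.80 in the healthy bladder of experiment 1, and at 7.72 and 8.12 in experiment 2. The fitted difference was -0.49 ± 0.10 log2 (SE), with -0.58 and -0.40 within the experiments (limma adjusted p = 0.0283).

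The other 3 measured genes stayed closer together. Hspa1b, the stress-inducible Hsp70, was at 10.78 in the tumour and 10.97 in the healthy bladder of experiment 1, and at 10.24 and 10.35 in experiment 2 (difference -0.15 ± 0.09 log2, SE; limma adjusted p = 0.240). Dnajb1, the J-domain partner of inducible Hsp70, was at 9.28 against 9.51 and 8.54 against 8.85 (-0.27 ± 0.09 log2, SE; limma adjusted p = 0.0819). Hspb1, a small heat shock protein that holds clients without ATP, was at 11.75 against 11.42 and 11.04 against 10.99. Its differences of 0.33 and 0.05 were unlike, and the fitted 0.19 ± 0.12 log2 (SE) did not pass (limma adjusted p = 0.250).

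**Figure D1:**
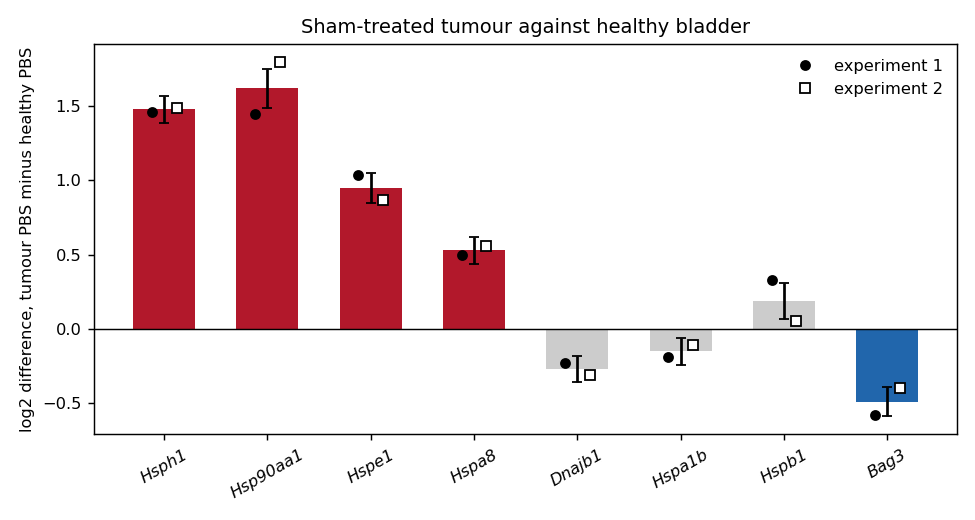
Log2 difference of tumour PBS from healthy PBS for the 8 chaperones; bars are the fitted difference with its SE, and points the differences within experiment 1 (filled) and experiment 2 (open). Red bars passed as higher and the blue bar as lower, grey bars did not pass; the bars of Hsph1 and Hsp90aa1 stand at 1.48 and 1.62 and that of Bag3 at -0.49.

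Without the replicate block that holds the experiment, the adjusted p of Hspe1 became 0.0996, that of Hspa8 0.459 and that of Bag3 0.509, and Hsph1 and Hsp90aa1 still passed (limma). With 1 PBS array left out as well, 2 chaperones passed without healthy PBS of experiment 1 or tumour PBS of experiment 2, 1 without tumour PBS of experiment 1, and 0 without healthy PBS of experiment 2. In the same arrays 7 of 7 proliferation markers were called higher (median 5.23 log2, from 3.79 to 6.16) and 3 of 4 neutrophil markers (median 3.73), while 8 of 8 smooth muscle markers were called lower (median -1.68). Their part in the chaperone differences was not tested, and in bulk RNA more or fewer cells of a type and more or less RNA per cell cannot be told apart.

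In tumours treated with alpha1-oleate, the chaperones that were high in the sham-treated tumour had lower values at higher doses. At 17 mM Hsph1, Hsp90aa1 and Hspe1 fell against tumour PBS and no chaperone rose, among 10.6% of all tested genes called lower and 15.7% called higher. With all arrays quantile-normalized together, 2241 genes were called lower and 2154 higher, in place of 1272 and 1875. The treated tumours were 1 array per dose, and their spread was taken to be that of the PBS groups. These comparisons share the tumour PBS arrays with the tumour comparison above, so a low value in one and a high value in the other are not separate observations.

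Hsph1 was at 10.12 in the sham-treated tumour, 9.63 at 1.7 mM, 9.30 at 8.5 mM and 9.02 at 17 mM. Each dose lay below the one before, and the 17 mM array was still 0.36 above the healthy bladder of the same experiment. It fell by 1.11 ± 0.12 log2 (SE) at 17 mM (limma adjusted p = 0.0206) and by 0.83 ± 0.12 (SE) at 8.5 mM (limma adjusted p = 0.0389). At 8.5 mM it was the 1 chaperone called, beside 4.65% of all tested genes called lower and 11.0% called higher. The quantile-normalized alternative called 1452 genes lower and 1823 higher there, in place of 557 and 1315.

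Hsp90aa1 was at 11.31, 11.15, 10.66 and 10.46 in the same order of doses. Most of the step lay between 1.7 and 8.5 mM, and the difference at 17 mM was -0.94 ± 0.17 log2 (SE; limma adjusted p = 0.0439). Hspe1 was at 11.13, 10.90, 10.68 and 10.38, with steps of similar size and a difference of -0.71 ± 0.13 log2 at 17 mM (SE; limma adjusted p = 0.0442). Hspa8 was at 12.13, 11.98, 11.84 and 11.77, a difference of -0.38 ± 0.12 log2 at 17 mM that did not pass (SE; limma adjusted p = 0.108). Dnajb1 was at 9.28, 9.01, 8.89 and 8.75, also short of the threshold at 17 mM (-0.51 ± 0.12 log2, SE; limma adjusted p = 0.0644). For this Dnajb1 probe set the treated tumours lay farther from the healthy level of 9.51 than the sham-treated tumour did, and the other 4 genes lay nearer to theirs. The second Dnajb1 probe set was at 8.09 in the healthy bladder, 8.68 in the sham-treated tumour and 7.97 at 17 mM, so there the treated tumour lay nearer to healthy.

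Bag3 was at 8.22, 8.36, 8.61 and 8.73, each dose above the one before, ending just below the healthy level of 8.80. At 17 mM its difference of 0.46 ± 0.13 log2 (SE) did not pass by itself (limma adjusted p = 0.0920), but its slope over doses did. Hspb1 was at 11.75, 11.81, 11.49 and 11.59 and showed no order by dose (at 17 mM -0.09 ± 0.15 log2, SE; limma adjusted p = 0.696).

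Hspa1b had a pattern of its own: it was at 10.78 in the sham-treated tumour, 9.98 at 1.7 mM, 10.51 at 8.5 mM and 10.63 at 17 mM. The lowest dose gave the lowest value of experiment 1. All 3 Hspa1b probe sets name the same source sequence, so they are not separate observations. Each had this pattern, at -0.80, -0.89 and -0.99 from tumour PBS at 1.7 mM and -0.15, -0.12 and -0.11 at 17 mM. It rests on 1 array, and at 1.7 mM no gene passed (0% of those tested; limma smallest adjusted p = 0.251, with 1595 genes at an unadjusted p under 0.05), Hspa1b included (-0.82 ± 0.12 log2, SE; limma adjusted p = 0.255).

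**Figure D2:**
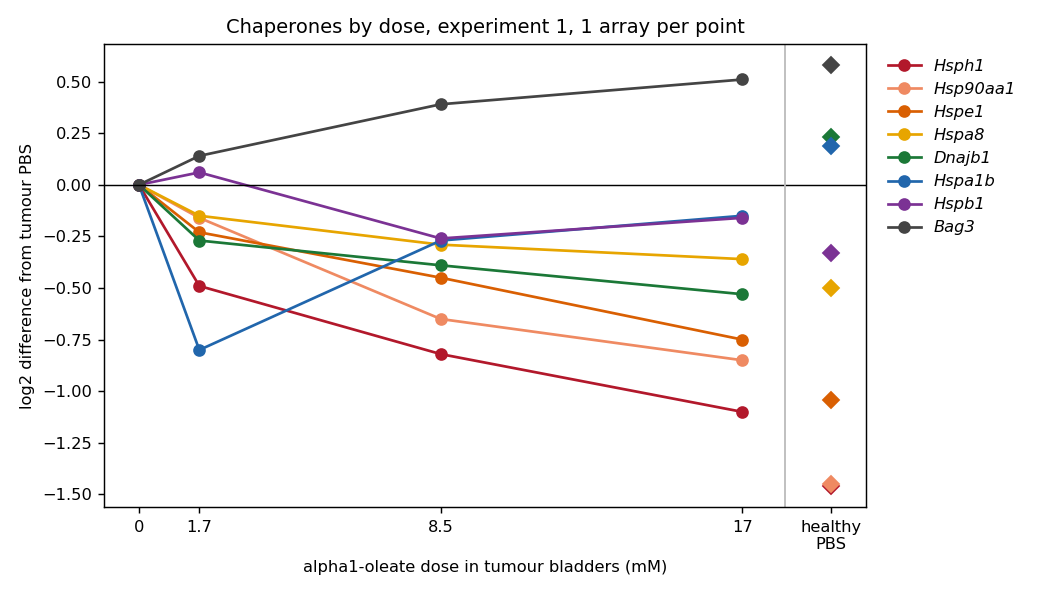
Log2 difference of each alpha1-oleate dose from tumour PBS in experiment 1, 1 array per point, with the healthy PBS bladder as diamonds at the right; the horizontal axis is the dose in mM. Hsph1, Hsp90aa1, Hspe1, Hspa8 and Dnajb1 lie lower at each higher dose, Bag3 lies higher, and Hspa1b has its lowest point at 1.7 mM.

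As a linear slope over the doses, 3 chaperones fell and 1 rose, among 14.4% of all tested genes with a falling slope and 16.5% with a rising one. The slope was -0.059 ± 0.012 log2 per mM for Hsph1 (SE; limma adjusted p = 0.0257), -0.055 ± 0.011 for Hsp90aa1 (SE; limma adjusted p = 0.0249) and -0.039 ± 0.008 for Hspe1 (SE; limma adjusted p = 0.0240). For Bag3 it was 0.027 ± 0.008 log2 per mM (SE; limma adjusted p = 0.0453). The slopes of Dnajb1 (-0.027 ± 0.008, SE; limma adjusted p = 0.0612) and Hspa8 (-0.020 ± 0.008, SE; limma adjusted p = 0.0929) did not pass here, but passed with the dose as rank, as log2(mM + 1) or with a variance trend. A lower value at each dose step was found for 5 of the 8 chaperones (Hsph1, Dnajb1, Hsp90aa1, Hspa8 and Hspe1), for 21.2% of all tested genes, and for 59.4% of the 2759 genes at least 0.5 log2 higher in the tumour of both experiments. That larger share was taken over genes chosen with the tumour array from which the steps start.

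The log2 gap between tumour and healthy bladder of experiment 1 that was left at 17 mM was 24.7% for Hsph1, 41.4% for Hsp90aa1, 27.9% for Hspe1, 28.0% for Hspa8 and 12.1% for Bag3. For these same genes, the share left at 1.7 mM was between 66.4% for Hsph1 and 89.0% for Hsp90aa1. At 8.5 mM it was between 32.8% for Bag3 and 56.7% for Hspe1. Hspa1b, Dnajb1 and Hspb1, whose tumour difference had not passed, had small gaps in experiment 1 (-0.19, -0.23 and 0.33 log2). Their shares at 17 mM were 179%, 330% and 51.5%. The same tumour PBS array enters each share.

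None of the called dose differences passed without the replicate block: at 17 mM the adjusted p became 0.542 for Hsph1, 0.511 for Hsp90aa1 and 0.871 for Hspe1, and at 8.5 mM 0.995 for Hsph1, with slopes at 0.241, 0.115, 0.433 and 0.310 for Hsph1, Hsp90aa1, Hspe1 and Bag3 (limma). With no expression filter Hsp90aa1 and Hspe1 at 17 mM came to 0.0551 and 0.0535 (limma adjusted p), and leaving out the 1.7 mM array took all 4 slopes over the threshold (0.0561 to 0.0944), as did leaving out any 1 of the 4 PBS arrays (0.0591 to 0.189). For the slope, leaving out either healthy PBS array gave the same values as leaving out tumour PBS of experiment 2, so these omissions are not separate checks. Without the 17 mM array the slope of Hsp90aa1 alone still passed, and without the 8.5 mM array that of Bag3 did not (limma adjusted p = 0.0681). At 17 mM against tumour PBS, 6 of 7 proliferation markers were called lower (median -1.59 log2) and 3 of 4 neutrophil markers (median -1.61), while 8 of 10 urothelial markers (median 2.58), 8 of 8 smooth muscle markers (median 2.31) and 4 of 4 tested liver markers (median 3.90) were called higher. The part of these changes in the chaperone values was not tested.

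Against healthy PBS directly, no chaperone passed at 17 mM, where 2.97% of all tested genes did (356 genes). The quantile-normalized alternative called 1010 genes lower and 1177 higher in place of 44 and 312, and it called Dnajb1 (-0.80 log2, limma adjusted p = 0.0253). In the fit as reported, 3 chaperones had an unadjusted p under 0.05: Dnajb1 at -0.78 ± 0.12 log2 (SE; limma adjusted p = 0.0704), Hsp90aa1 at 0.69 ± 0.17 (SE; limma adjusted p = 0.116) and Hsph1 at 0.37 ± 0.12 (SE; limma adjusted p = 0.153). Bag3 was nearest to the healthy level, with a difference of -0.02 ± 0.13 log2 (SE; limma adjusted p = 0.915).

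Healthy bladders given 17 mM alpha1-oleate were measured on 1 array at each time, and the array labelled 24 h carries the marker signal described above. No chaperone passed at 24 h or at 7 d, where 0% of all tested genes did at either time (limma smallest adjusted p = 0.0568 and 0.403), with 2503 and 1096 genes at an unadjusted p under 0.05. One chaperone was under that unadjusted level at 24 h, Dnajb1, and 3 at 7 d, Hspa1b, Hsph1 and Dnajb1. At 24 h none of the 8 genes was higher than healthy PBS by more than the 0.51 log2 of Hsp90aa1.

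Hsph1 was at 8.03 in healthy PBS, 8.30 at 24 h and 7.31 at 7 d, the lowest Hsph1 value of experiment 2. Its 7 d difference was -0.73 ± 0.12 log2 (SE; limma adjusted p = 0.498). Hspa1b was at 10.35, 10.22 and 9.73 (at 7 d -0.64 ± 0.12 log2, SE, which did not pass), again with its lowest value of experiment 2 at 7 d. Dnajb1 was at 8.85, 8.41 and 8.37, below healthy PBS at both times (-0.42 ± 0.12 and -0.46 ± 0.12 log2, SE; limma adjusted p = 0.209 and 0.520).

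Hsp90aa1 was at 9.46, 9.97 and 9.62, Hspe1 at 9.75, 10 and 9.61, and Hspa8 at 11.11, 11.35 and 11.17 in the same order of healthy PBS, 24 h and 7 d. All 3 were highest in the array labelled 24 h. Compared with the tumour PBS array of experiment 2, that array differed by -1.22 log2 for Hsph1, -1.29 for Hsp90aa1, -0.62 for Hspe1 and -0.32 for Hspa8, so it lay nearer the healthy level for each. Its proliferation, macrophage and neutrophil markers were at 3.16, 1.75 and 2.34 log2 above healthy PBS, and their part in the chaperone values was not tested. Hspb1 was at 10.99, 11.10 and 10.79 and Bag3 at 8.12, 8.06 and 8.13, within 0.31 and 0.07 log2 of each other.

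**Figure D3:**
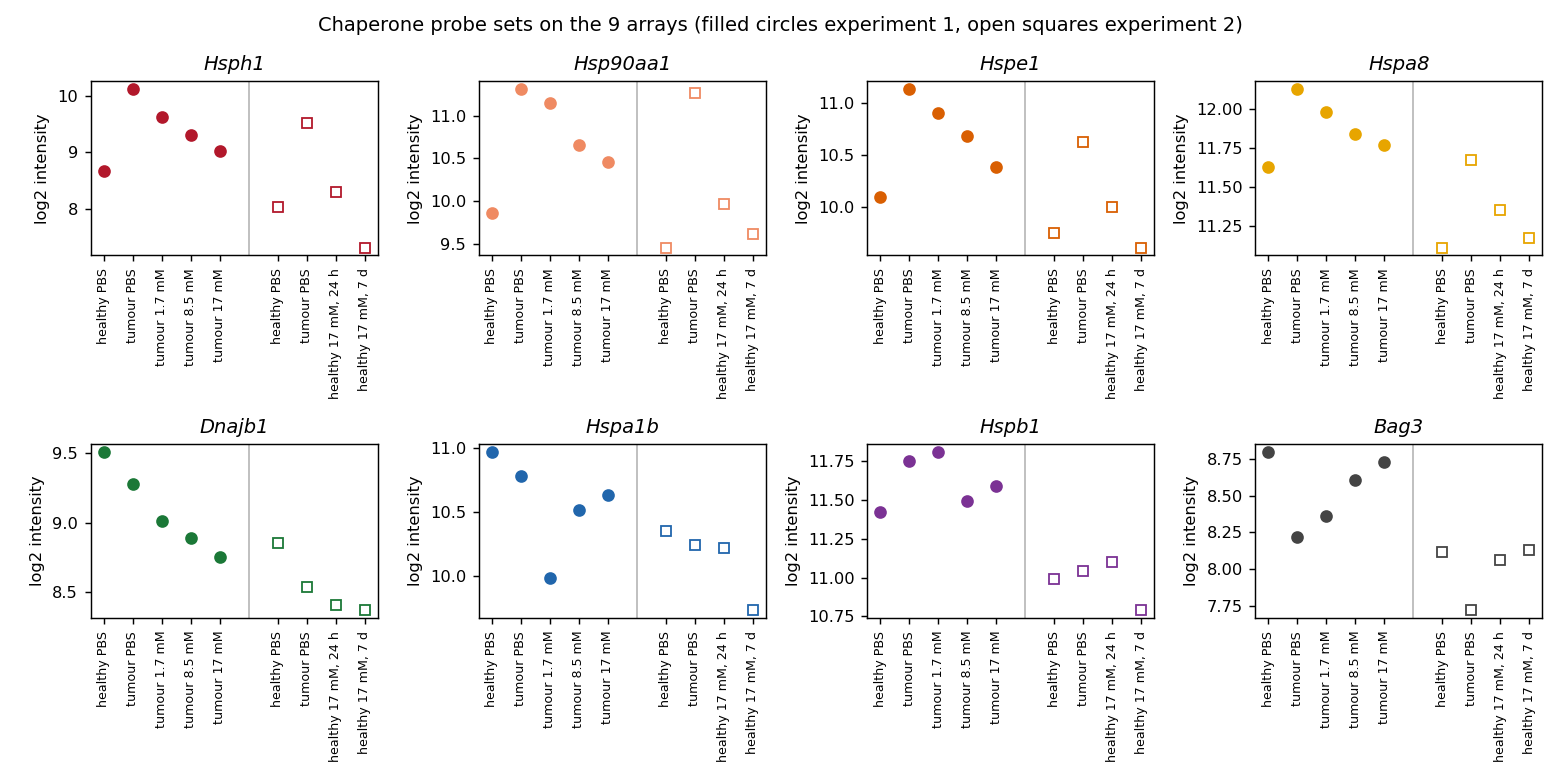
Log2 intensity of the chosen probe set of each chaperone on the 9 arrays, filled circles for experiment 1 and open squares for experiment 2; each panel has its own vertical axis. The tumour PBS array is the highest of its experiment for Hsph1, Hsp90aa1, Hspe1 and Hspa8 and the lowest for Bag3. Within experiment 2 the 7 d array holds the lowest Hsph1 (7.31) and Hspa1b (9.73) values.

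Other probe sets of the genes mostly followed the chosen ones. The second Hspe1 probe set was higher in the tumours by 1.21 and 0.95 and differed by -0.91 log2 at 17 mM. The 3 other Hspa8 probe sets were higher in both tumours, from 0.35 to 1.76, and lower at 17 mM, from -0.32 to -1.63, the dimmest of them, with a mean of 4.80, giving both extremes. Dnajb1 was the exception. Its second probe set, with a mean of 7.86 against 8.85, was higher in the tumours by 0.59 and 0.66, where the chosen one differed by -0.23 and -0.31. At 17 mM both Dnajb1 probe sets were below tumour PBS, at -0.71 and -0.53, so the direction by dose did not depend on the choice and that in the tumour did. The brighter Hspb1 sets were alike, and the dim ones, with means of 6.17 and 5.06, differed from them in sign in places. Hsph1, Hsp90aa1 and Bag3 had 1 probe set each.

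The chaperones' partners were read from lists of related genes. All 8 subunits of the cytosolic CCT chaperonin, which folds actin and tubulin, rose in the tumour, by a median of 0.74 log2 beside the -0.005 of all tested genes; Cct6a rose by 1.14, Cct3 by 1.11 and Cct8 by 1.11. At 17 mM all 8 differences were below 0 (median -0.47, beside -0.045), and these same 3 subunits fell, Cct6a and Cct8 by 0.66 and Cct3 by 0.62. The background of 28.6% called higher and 10.6% called lower applies to these counts as well.

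Of 28 cytosolic co-chaperones and partners 26 were tested, and 9 rose and 7 fell in the tumour, with a median of 0.09. These shares, and those of the lists that follow, stand beside 28.6% of all tested genes called in each direction in the tumour, and 15.7% higher and 10.6% lower at 17 mM, and with so few genes a list they are counts only. Fkbp5, an immunophilin of Hsp90 complexes with steroid receptors, rose by 2.04 ± 0.10 log2 (SE; limma adjusted p = 0.00256). Hspa4l, a relative of Hsph1, rose by 1.98 ± 0.10 log2 (SE; limma adjusted p = 0.00262), and Hspa2, an Hsp70 known for its role in spermatogenesis, fell by 1.77 ± 0.09 log2 (SE; limma adjusted p = 0.00264). At 17 mM 6 of the 26 fell and 2 rose (median -0.13). Fkbp5 fell by 1.37 and Stip1, the adaptor that joins Hsp70 to Hsp90, by 0.98, while Hspa2 rose by 1.68 log2. Fkbp5 did not fall at each dose. It was at 9.26 in tumour PBS of experiment 1, 10.53 at 1.7 mM, 7.79 at 8.5 mM and 7.92 at 17 mM, and its slope did not pass.

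The small heat shock proteins other than Hspb1 did not move together. Of 4 tested in the tumour, 2 fell and 1 rose: Hspb8 fell by 1.25 and Hspb2 by 0.95, Cryab rose by 1.02, and Hspb7 differed by -0.67 without passing (limma adjusted p = 0.154). At 17 mM Hspb7 rose by 2.12 ± 0.41 (SE), Hspb8, the partner of Bag3, by 1.52 and Hspb2 by 1.12 log2, and Cryab was at -0.55 (limma adjusted p = 0.0567). The smooth muscle markers given above had the sign of Hspb7, Hspb8 and Hspb2 in both comparisons, and their part was not tested.

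Among 6 mitochondrial chaperones and proteases tested, 2 rose and 1 fell in the tumour: the protease Lonp1 by 1.44, the mitochondrial Hsp70 Hspa9 by 0.86, and Clpp at -0.48 log2. At 17 mM 1 of the 6 was called, Lonp1, which fell by 1.25. Of 6 recognised HSF1 targets tested, 3 of which (Cryab, Dnajb4 and Chordc1) are also counted in the lists above, 3 rose and 2 fell in the tumour; Hspa12a rose by 1.10 and Ier5, a regulator of HSF1, fell by 1.40 log2. At 17 mM Hspa12a fell by 0.62 and Ier5 rose by 0.60. Ier5 was dim, at 3.90 in tumour PBS and 5.30 in healthy PBS of experiment 1, and at 2.79 and 4.19 in experiment 2. It was at 4.50 at 17 mM. Both tumour PBS values lay below 4.16 log2, the expression limit set on the mean of a gene. The size of its differences is therefore uncertain. Of the HSF factors, Hsf1 was not analysed here, Hsf2 and Hsf4 lay under the expression limit, and Hsbp1, a binding protein of HSF1, did not pass in the tumour (-0.32 ± 0.10 log2, SE; limma adjusted p = 0.0770) or at 17 mM (0.33 ± 0.14 log2, SE; limma adjusted p = 0.170).

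**Figure D4:**
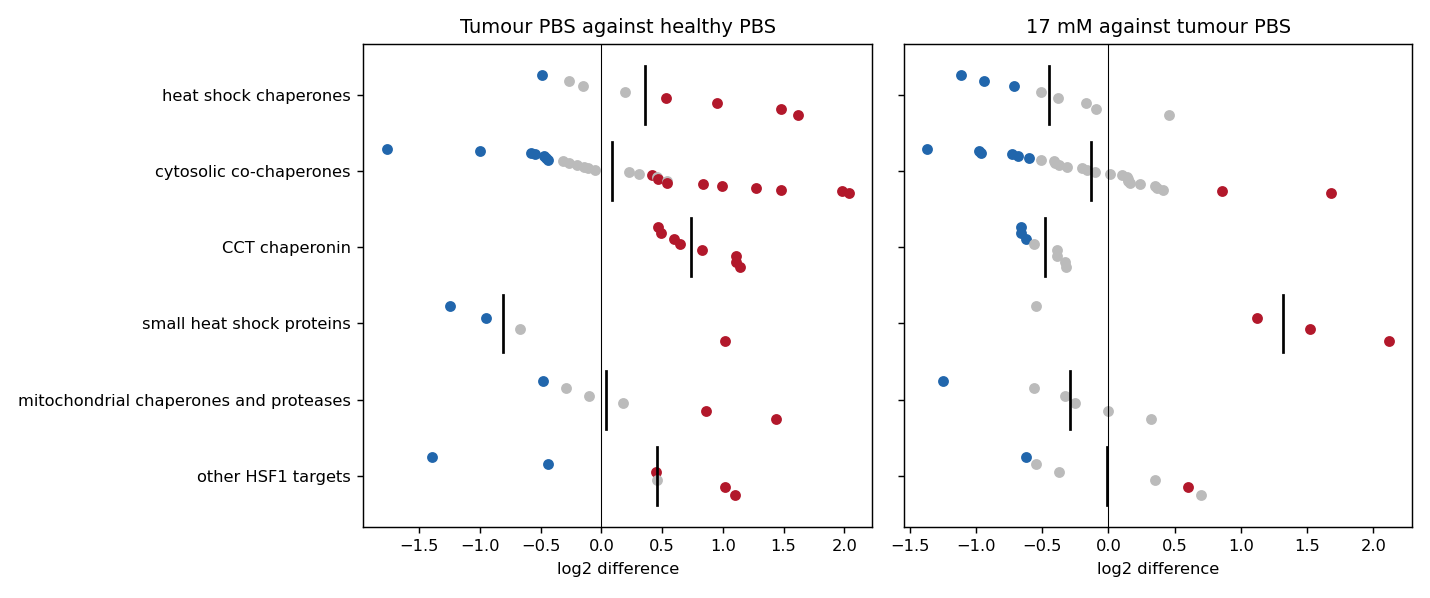
Log2 differences of the 8 chaperones and 5 lists of related genes for tumour PBS against healthy PBS (left) and 17 mM against tumour PBS (right), 1 point per tested gene; red points passed as higher, blue as lower, grey did not pass, and the black line is the list's median. The CCT subunits lie above 0 on the left, with a median of 0.74, and below 0 on the right, with a median of -0.47, and the tested small heat shock proteins have a median of 1.32 on the right.

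Genes with the most similar pattern were taken by the root mean square difference of log2 values over the 9 arrays, after each gene's mean in an experiment was removed. For Hspa1b these were Ccn5 (0.138), Rbm12b1 (0.145) and Ubxn2b (0.155), for Hspb1 Virma (0.0286), Uqcrfs1 (0.0314) and Ssh1 (0.0380), and for Bag3 Gpr180 (0.0376), Itgb1bp2 (0.0393) and Rgp1 (0.0422). The SD of the members themselves over the 9 arrays was 0.296 log2 for Hspa1b, 0.135 for Hspb1 and 0.199 for Bag3. With 9 arrays and many genes to choose from, such likeness is a description of these arrays.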

How the data were processed

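The arrays were Affymetrix mouse PM arrays. Bulk RNA from frozen, pulverised bladders was amplified with a 3' IVT kit, per the labels' protocols. The values deposited by the authors are log2 intensities for which the submitters' processing notes name RMA and Transcriptome Analysis Console (version 4.0.1.36). The sorted values of arrays differed by 0.022 log2 within and by 0.329 between the experiments, so these had been normalized apart.

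Of 45077 probe sets, 28898 named 1 gene, 551 several and 15628 none or a control, and 28689 were matched by Entrez number. Genes in the lowest 30% by mean (below 4.16 log2) were left out. Means of the 7 groups, with the experiment number as a block, were fitted over the 11969 genes with limma 3.58.1 (R 4.3.3; lmFit, eBayes), with 1 residual and 2.23 prior degrees of freedom (3 and 2.54 for the slope). The experiment number pairs healthy and tumour PBS, whose same-numbered deviations correlated at 0.647 and whose values were normalized together. P-values were adjusted by Benjamini-Hochberg over all tested genes. The scripts were tested on simulated data. Figures were drawn with Python 3.11.15 and matplotlib 3.10.9.

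The members and lists were chosen with earlier results of these data known. All measured members are named, and of each list up to 3 called genes by absolute difference in the tumour and 17 mM comparisons. For likeness, genes are named for Hspa1b, Hspb1 and Bag3; the rule also listed Hspd1, which was not measured. Alternatives tried were no block, joint quantile normalization, other expression filters, a variance trend, averaged probe sets, calls limited to 2-fold differences, other dose codings and leaving out single arrays. No depth or detection value was used, and the number of arrays limits the precision.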

Additional observations from a re-analysis of the deposited data

Results flagged for a closer look

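After 17 mM alpha1-oleate in healthy bladders, Hsph1, Hspe1, Hspb1 and Bag3 lay on opposite sides of the experiment 2 healthy PBS array at 24 h and 7 d. Each time was 1 array, and the share of all tested genes doing so was not counted. For Bag3 the differences from that array were -0.06 and 0.01, and the fitted ones, -0.10 and -0.03, were both below 0. The 24 h value was above the 7 d value by 0.99 ± 0.12 log2 (SE) for Hsph1 (limma adjusted p = 0.112), by 0.39 ± 0.14 for Hspe1 (limma adjusted p = 0.247) and by 0.31 ± 0.17 for Hspb1 (limma adjusted p = 0.361). For Bag3 the difference was -0.07 ± 0.14 log2 (SE; limma adjusted p = 0.802). None of the 4 passed the test of the difference itself, and the array labelled 24 h is the one whose proliferation and neutrophil markers stood apart from the other healthy arrays.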

How the results depend on the processing

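Over the alternatives, 70 of 100 counts of called chaperones stayed within 1.5 times the reported count and 30 moved. Counts of 0 at 1.7 mM, 24 h and 7 d all stayed. Most that moved were in comparisons calling chaperones. The 13 called differences gave 163 values, of which 120 stayed on their side of the threshold or, with no test, moved by less than the spread between the healthy PBS arrays; 37 no longer passed, 6 moved by more and 0 turned sign. Without the replicate block 2 chaperones were called in the tumour, 0 at 17 mM, 0 at 8.5 mM and 0 by slope, in place of 5, 3, 1 and 4. That fit sets separately normalized arrays side by side, and moved the median of all genes from -0.045 to 0.170 log2 at 17 mM, from -0.043 to 0.180 at 8.5 mM and from 0.005 to 0.255 at 1.7 mM. A 2-fold requirement left 2 in the tumour, 1 at 17 mM, 0 at 8.5 mM and 1 by slope. No expression filter left 1 at 17 mM. Joint quantile normalization gave 2 at 8.5 mM and 1 at 17 mM against healthy PBS, where a variance trend also gave 1. Single arrays left out, here and below, were the PBS arrays and, for the slope, also the treated tumours. Fewer chaperones then passed in the tumour, and no called difference at 17 mM or 8.5 mM still passed. By slope 0 to 3 passed. For group differences these fits ran without the block, as it left no residual degree of freedom. Loss of block and of array cannot be told apart there. With the block kept, and then with no test (an alternative chosen after seeing the data), single-array omissions left the 17 mM differences of Hsp90aa1 between -1.20 and -0.85 and of Hspe1 between -0.75 and -0.58. Leaving out the array labelled 24 h changed no count of called chaperones in the 7 comparisons without it. That was fixed in advance, as the array is its own group in the fit, and says nothing on its influence. These counts are among those that stayed. Counts over all genes were 6852 in the tumour (3172 to 7403), 3147 at 17 mM (1217 to 4395), 1872 at 8.5 mM (945 to 3275), 0 at 1.7 mM (0 to 36), 356 for 17 mM against healthy (202 to 2187), 3698 by slope (1125 to 5284), 0 at 24 h (0 to 780) and 0 at 7 d (0 to 28). With single arrays left out they were 2230 to 2807, 850 to 1378, 519 to 1125, 7 to 212, 244 to 676, 0 to 3271, 76 to 153 and 7 to 21 in that order.

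Of the differences that had not passed, 24 values turned sign in fits that gave a test, and the cause was not tested. Single-array omissions with the block kept and no test turned further values that are not in this count. Examples are Hspb1 at 17 mM, at 0.12 log2 without tumour PBS of experiment 1, and Hsp90aa1 at 7 d, at -0.19 without healthy PBS of experiment 2. The 24 are as follows. Without the replicate block, Hspa1b was at 0.12 and Hspb1 at 0.19 log2 at 17 mM, Hspa1b at 0.00 and Hspb1 at 0.09 at 8.5 mM, Dnajb1 at 0.10, Hspa8 at 0.08 and Hspe1 at 0.03 at 1.7 mM, and Bag3 at 0.27 for 17 mM against healthy PBS. The Hspb1 slope was 0.005 log2 per mM, Hsph1 was at -0.04, Hspb1 at -0.10 and Hspa8 at -0.02 at 24 h, and Hsp90aa1 at -0.04 and Hspa8 at -0.20 at 7 d. With the mean of probe sets, Dnajb1 was at 0.18 in the tumour, Hspb1 at 0.01 at 8.5 mM, Hspb1 at -0.03 and Hspa8 at -0.01 for 17 mM against healthy PBS, Hspb1 at -0.03 at 24 h and Hspa8 at -0.07 at 7 d. The Hspa1b slope was -0.018 with dose as log2(mM + 1), -0.024 with dose as rank, and between -0.011 and 0.025 with single arrays left out. Dnajb1 passed at 17 mM against tumour PBS under 4 alternatives (adjusted p 0.0345 to 0.0499, limma), in the tumour with a variance trend (0.0420), and by slope under 4 (0.0137 to 0.0477). The Hspa8 slope passed under 3 (0.0264 to 0.0374).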
